A study of Homo sapiens with 4 samples.

Results

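The early response of HCC1143 cells to paclitaxel was described by setting all cells of the library exposed to the drug for 24 h against all cells of the library kept in its solvent, DMSO, for the same 24 h. HCC1143 is an established human line from a triple-negative breast carcinoma. Its cells were left to attach in 6-well plates and then received either DMSO or 1 nM paclitaxel. Both groups were grown in the same serum-containing medium, and each group was 1 library of the 10x Chromium droplet method, which tags each captured poly(A) RNA molecule with a cell barcode and a unique molecular identifier (UMI). Companion libraries of cells in DMSO or in paclitaxel for 72 h gave levels, and a paclitaxel against DMSO ratio of their own, to set beside the 24 h values.

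Cells were kept when under 20% of their UMIs came from mitochondrially encoded (MT-) genes. This left 1101 of 1102 DMSO barcodes and 776 of 778 paclitaxel barcodes, together 1877 of the 3180 kept cells of the 4 libraries. The kept cells nearest to the limit had 19.5% MT- UMIs with DMSO and 18.9% with paclitaxel, and the nearest cells left out had 29.3% and 29.1%. Both 24 h libraries shared 4 barcodes. All 6 epithelial markers were listed in both libraries, with summed levels of 1733 and 2074 CPM (UMIs of a gene scaled to a library total of 1000000). Of the white blood cell markers 1 of 5 was listed, at 1.35 CPM with DMSO and 2.34 CPM with paclitaxel, and PTPRC, CD3E, CD79A and TYROBP were not listed. Of the 6 fibroblast markers only COL1A1 was listed, at 11.8 and 10.0 CPM. Of the 4 endothelial markers 2 and 3 were listed, with summed levels of 2.25 and 6.02 CPM, and PECAM1 was in neither table. Longer lists of 17 white blood cell, 11 fibroblast and 8 endothelial markers summed to 8.47, 12.1 and 2.80 CPM with DMSO. With paclitaxel the same lists summed to 11.2, 10.7 and 6.20 CPM.

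Paclitaxel binds beta-tubulin inside the microtubule and keeps microtubules from coming apart, so that spindles are disturbed and chromosomes can be missegregated. Cells that leave a faulty mitosis may carry micronuclei, whose DNA can be sensed in the cytosol by cGAS and passed on by STING (TMEM173) to interferon genes. Interferons signal through factors such as STAT2 and IRF9, which bind interferon-stimulated response elements in the promoters of antiviral and antigen presentation genes. NF-kB acts in parallel on chemokine and acute phase genes, and cells that leave the cycle lose transcripts made late in it.

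For each gene UMIs were summed over the cells of a library and scaled to CPM. The log2 ratio of paclitaxel over DMSO was then taken minus the median log2 ratio of -0.14 over the 8096 genes that averaged 10 CPM or more, and is called the relative log2 ratio. A gene was counted as higher or lower when it differed by at least 1.5-fold on this scale and its exact (Clopper-Pearson) 95% interval lay on 1 side of 0. Intervals cover counting error only. With 1 library a group no test across samples exists, and no difference has a replicate check.

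By this rule 510 genes, 6.3% of those measured, were higher with paclitaxel and 102 genes, 1.26%, were lower. Together they were 7.56%. At 2-fold the counts were 118 and 3. The split depends on the scale: without subtraction of the median, 324 genes were higher and 293 lower, so that 52.5% rather than 83.3% of the counted genes were higher. Of the 8096 genes, 80% lay between -0.32 and 0.46.

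**Figure D1:**
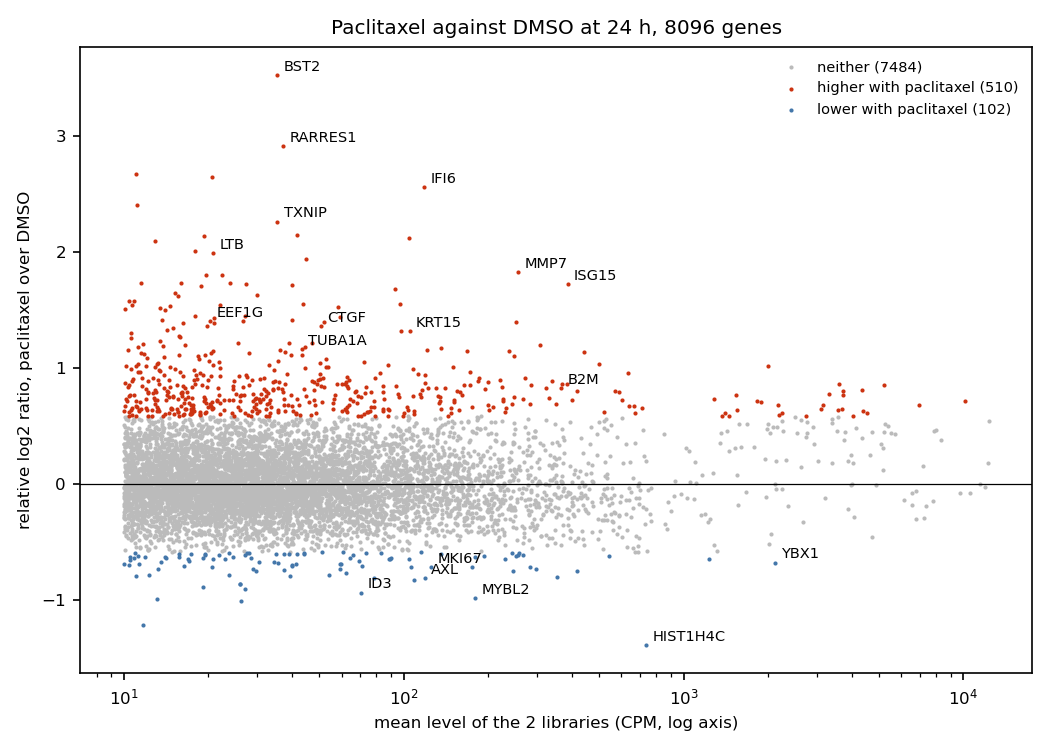
Relative log2 ratio of paclitaxel over DMSO at 24 h against the mean level of both libraries in CPM, 1 point a gene, with the higher genes in red and the lower genes in blue. The higher genes reach 3.52 (BST2), while the lowest gene, HIST1H4C, is at -1.38.

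Promoters were searched in the 250 bases before the start site given by RefSeq on GRCh38.p14. Of genes discussed below, IRF7, SAA1, C3 and FOXM1 had no promoter entry and were not searched. The motif of the interferon-stimulated response element was taken as GAAA, any 2 bases and GAAA again, and was sought on both strands. It stood in 10 of the 17 matched promoters of the 18 interferon-induced genes that were higher, against 3.07% of 27305 promoters and 2.13% of 6703 matched promoters of genes with at least 10 CPM. It also stood in 3 of 6 matched promoters of list members that were not counted. Stretches of 60 bases show how the motif lies in promoters of some higher interferon-induced genes and of B2M, an antigen presentation gene. These genes were picked after their values were seen. Among other antigen presentation genes the search found a match in TAP1, but none in PSMB9, PSME1, HLA-B and HLA-C. None was found in the effector gene PARP9. Capitals mark every match in the stretch, on the gene's own strand, 5′ to 3′.

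IFI6, chr1:27672251-27672310, minus strand: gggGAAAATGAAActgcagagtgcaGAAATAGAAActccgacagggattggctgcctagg
ISG15, chr1:1013365-1013424, plus strand: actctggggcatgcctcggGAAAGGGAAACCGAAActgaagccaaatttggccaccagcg
BST2, chr19:17405720-17405779, minus strand: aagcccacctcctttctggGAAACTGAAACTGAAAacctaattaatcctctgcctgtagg
PARP14, chr3:122680779-122680838, plus strand: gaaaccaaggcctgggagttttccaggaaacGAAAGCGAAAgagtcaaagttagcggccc
IFITM3, chr11:320861-320920, minus strand: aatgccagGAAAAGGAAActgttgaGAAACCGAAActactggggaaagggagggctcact
LGALS3BP, chr17:78979947-78980006, minus strand: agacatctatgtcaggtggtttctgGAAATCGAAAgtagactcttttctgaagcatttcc
B2M, chr15:44711354-44711413, plus strand: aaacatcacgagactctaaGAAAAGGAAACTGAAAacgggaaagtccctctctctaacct

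In ISG15, BST2 and B2M the stretch holds 2 matches that overlap, and in IFI6 it holds 2 that stand apart. The nearest match began 29 bases before the start site in PARP14 and 138 bases before it in B2M. The NF-kB motif GGAATTTCC, sought on both strands, was rarer, in 0.428% of all promoters and in 0.373% of promoters of genes with at least 10 CPM. It is shown for 2 chemokine genes and for NFKBIA, the inhibitor that NF-kB itself induces. Of matched promoters of NF-kB pathway and feedback genes it stood in 1 of 4 that were higher and in 2 of 13 not counted. It stood in 2 of 4 matched promoters of higher chemokines and cytokines. No match was found in SOD2, TNFAIP2 and LTB, which were also higher. In NFKBIA the match is on the other strand.

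CXCL1, chr4:73869289-73869348, plus strand: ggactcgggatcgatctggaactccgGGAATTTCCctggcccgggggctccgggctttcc
CXCL8, chr4:73740452-73740511, plus strand: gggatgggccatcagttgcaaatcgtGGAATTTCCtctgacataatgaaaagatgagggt
NFKBIA, chr14:35404797-35404856, minus strand: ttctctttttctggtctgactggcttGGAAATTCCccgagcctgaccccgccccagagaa

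Genes made late in the cell cycle often carry the cell cycle genes homology region (CHR), bound by complexes that hold them off in resting cells. Its letters TTTGAA are short, and on either strand they stood in 13.6% of all promoters and in 7.70% of those of genes with at least 10 CPM. They are shown for 4 of the genes that were lower with paclitaxel. Of these, PIF1 and ESPL1 were not lower in cells without MKI67 and TOP2A UMIs. The letters also stood in 12 of 26 matched promoters of kinesin and spindle genes that were not counted. For mitotic entry and exit genes not counted it was 14 of 30. Among lower members of both lists the letters stood in 1 of 3 and in 2 of 2. The search found none in the lower genes MYBL2, SPAG5 and SKA3, and a match in PLK1, which was not counted. No printed stretch held another of these 3 motifs. The PIF1 stretch lies inside the RefSeq span of its gene, chr15:64815632-64827062, before a start site within that span.

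MKI67, chr10:128126424-128126483, minus strand: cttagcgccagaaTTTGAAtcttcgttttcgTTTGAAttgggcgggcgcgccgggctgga
PIF1, chr15:64825648-64825707, minus strand: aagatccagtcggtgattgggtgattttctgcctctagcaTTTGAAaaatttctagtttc
ESPL1, chr12:53268239-53268298, plus strand: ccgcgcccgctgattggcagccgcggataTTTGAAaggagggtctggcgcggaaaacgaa
CEP55, chr10:93496469-93496528, plus strand: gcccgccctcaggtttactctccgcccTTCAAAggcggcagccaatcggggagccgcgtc

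The interferon-induced effectors were the list with the widest range. Of 26 measured members 18 were higher with paclitaxel and 0 were lower, and 25 lay above the median of all genes, with a list median of 0.86. BST2, which encodes tetherin, a membrane protein that holds budding virus on the cell, was at 6.16 CPM with DMSO and 64.4 CPM with paclitaxel. Its relative log2 ratio was 3.52 (95% interval 3.38 to 3.67), the highest of the 8096 genes. IFI6, a mitochondrial interferon-induced protein gene, was at 37.1 and 199 CPM (2.56, 2.50 to 2.62). PARP14 and PARP9, which encode ADP-ribose transferases, were at 5.30 and 20.6 CPM (2.10) and at 5.72 and 17.3 CPM (1.74). ISG15, the ubiquitin-like modifier, was the most abundant of these 5, at 192 and 579 CPM (1.73). LGALS3BP, a secreted galectin ligand, was at 37.9 and 69.5 CPM (1.01). These effectors were therefore raised over a range of abundance, from PARP14 to ISG15. IFI44L had 9.39 CPM with paclitaxel and was not listed in the DMSO table, so no ratio was formed.

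Each of these effectors was also higher in the paclitaxel library at 72 h than in its DMSO control. BST2 was at 37.9 CPM with DMSO and 125 CPM with paclitaxel at 72 h, IFI6 at 73.3 and 736 CPM, ISG15 at 296 and 1912 CPM, and PARP14 at 19.6 and 54.9 CPM. For BST2 and PARP14 the 72 h DMSO library was itself closer to the 24 h paclitaxel library than to the 24 h DMSO library. The level of BST2 in DMSO was 6.16 CPM at 24 h and 37.9 CPM at 72 h.

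Genes that make, sense and relay interferon moved less. Of 17 measured members 7 were higher and 0 lower, with a median of 0.23. IRF7, the transcription factor that amplifies interferon genes, was at 15.1 CPM with DMSO and 28.6 CPM with paclitaxel (1.06, 0.94 to 1.17). STAT2 was at 21.3 and 36.1 CPM (0.90). TMEM173, which encodes STING, was at 8.01 and 13.6 CPM (0.90). Transducers were thus nearer to 2-fold than the strongest effectors.

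In the MHC class I pathway, which cuts proteins to peptides and shows them on the surface, 9 of 16 measured members were higher and 0 lower, with a median of 0.65. PSME1, a subunit of the proteasome activator, was at 111 CPM with DMSO and 224 CPM with paclitaxel (1.15, 1.11 to 1.19). PSMB9, an immunoproteasome subunit, was at 8.26 and 15.9 CPM (1.09). The heavy chain gene HLA-C was at 216 and 355 CPM (0.86) and B2M, the light chain, at 280 and 451 CPM (0.83). In contrast the constitutive proteasome list had 0 of 31 members higher and 0 lower, with a median of 0.15.

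Chemokines and cytokines had the highest list median, 1.16, over only 9 measured members, of which 7 were higher and 0 lower. CCL28, a mucosal chemokine, was at 16.5 CPM with DMSO and 66.4 CPM with paclitaxel (2.14, 2.05 to 2.24). CX3CL1, a membrane-bound chemokine, was at 8.26 and 23.1 CPM (1.62). CXCL8, which attracts neutrophils, was at 32.2 and 84.1 CPM (1.52). LIF, a cytokine of the interleukin-6 family, was at 9.97 and 21.8 CPM (1.27). LTB, which encodes lymphotoxin beta of the TNF family, was at 9.01 and 32.6 CPM (1.995). CXCL8 and CCL28 differed in how they were spread over cells, as described with the per-cell values.

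NF-kB pathway and feedback genes moved little as a list, with 4 of 20 measured members higher, 0 lower and a median of 0.18. TNFAIP2 was at 12.1 CPM with DMSO and 29.8 CPM with paclitaxel (1.43). SOD2, the mitochondrial superoxide dismutase and an NF-kB target, was at 61.8 and 115 CPM (1.03). NFKBIA was at 51.9 and 76.0 CPM (0.69) and BCL3 at 24.2 and 35.4 CPM (0.69).

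Epithelial defence genes were higher almost throughout: 10 of 11 measured members were higher and 0 lower, with a median of 0.97 and a lowest member at 0.55. MUC16, a cell surface mucin, was at 9.43 CPM with DMSO and 29.9 CPM with paclitaxel (1.80). Complement C3 was at 20.01 and 59.9 CPM (1.72), PDZK1IP1 at 7.87 and 20.2 CPM (1.5) and the acute phase gene SAA1 at 30.7 and 73.6 CPM (1.40). SLPI, a secreted inhibitor of leukocyte proteases, was at 59.99 and 136 CPM (1.32). These are secreted or surface products of epithelia under inflammation.

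Luminal epithelial genes were higher too, with 10 of 17 measured members higher, 0 lower and a median of 0.67. KRT23 was at 19.9 CPM with DMSO and 69.5 CPM with paclitaxel (1.94, 1.85 to 2.03), and MUC1 was at 46.0 and 79.4 CPM (0.92). The simple epithelial keratin gene KRT19 was at 323 and 511 CPM (0.80), and KRT18 was at 563 and 783 CPM (0.61). SLPI and MUC1 are members of both this list and the defence list. Basal epithelial genes had a median of 0.00, with 3 of 23 members higher and 0 lower. KRT15 was at 64.3 and 146 CPM (1.32, 1.27 to 1.38), KRT6B at 284 and 417 CPM (0.69) and KRT16 at 69.8 and 98.6 CPM (0.64). KRT5 was at 130 and 116 CPM (-0.03) and KRT14 at 391 and 397 CPM (0.16), so that the defining basal keratins stayed near the median of all genes.

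Other genes of the epithelial surface were among the strongest. RARRES1, a retinoid-responsive membrane protein gene, was at 9.48 CPM with DMSO and 64.9 CPM with paclitaxel (2.91). VTCN1, which encodes the immune checkpoint ligand B7-H4, was at 3.83 and 18.4 CPM (2.40). MMP7, a matrix metalloproteinase of epithelial cells, was at 122 and 392 CPM (1.83), with 4 of 18 matrix protease genes higher and 0 lower. CLDN1, a tight junction gene, was at 34.2 and 84.3 CPM (1.44), while the junction list as a whole had a median of 0.01 with 4 of 29 members higher.

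MGP, a matrix protein that inhibits calcification, was at 42.2 and 167 CPM (2.13). TXNIP, which encodes an inhibitor of thioredoxin and of glucose uptake, was at 13.2 and 57.6 CPM (2.26, 2.16 to 2.37). LEMD1, a cancer-testis gene, was at 3.25 and 18.8 CPM (2.67), and CDC42EP5, an effector of the CDC42 GTPase, at 6.18 and 35.2 CPM (2.65). CTSF, a lysosomal cysteine protease gene, was at 7.71 and 30.9 CPM (2.14), and ITPR2, a calcium channel of the endoplasmic reticulum, at 7.69 and 28.2 CPM (2.01). These genes belonged to no single list.

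Immediate early genes, which respond within minutes to growth factors and stress, had 7 of 20 measured members higher, 0 lower and a median of 0.50. FOS was at 8.71 CPM with DMSO and 19.9 CPM with paclitaxel (1.33), MAFF at 12.8 and 22.95 CPM (0.98) and JUNB at 38.1 and 65.1 CPM (0.91). In the EGFR and RAS feedback list 5 of 16 members were higher and 0 lower, among them SPRY1 at 7.47 and 19.5 CPM (1.52) and ERRFI1, an EGFR inhibitor, at 59.3 and 105 CPM (0.96). Targets of the YAP coactivator did not move together. CTGF, a matricellular target, was at 30.2 and 70.7 CPM (1.36), whereas AXL, a receptor tyrosine kinase, was at 157 and 81.4 CPM (-0.81, -0.86 to -0.76). The list median was 0.07, with 5 of 23 members higher and 1 lower.

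Genes of the TGF-beta and BMP pathway were split as well, with 3 of 18 higher, 2 lower and a median of 0.02. The ID genes, BMP-induced inhibitors of differentiation factors, were lower: ID1 was at 363 CPM with DMSO and 202 CPM with paclitaxel (-0.71, -0.74 to -0.68), and ID3 at 95.6 and 45.5 CPM (-0.93, -0.998 to -0.866). BAMBI, a decoy receptor of the pathway, was at 44.9 and 68.0 CPM (0.74), and TGIF1, a repressor of SMAD proteins, at 63.1 and 94.1 CPM (0.71).

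The stress response list, which holds targets of ATF4 and related factors, had 9 of 24 members higher, 0 lower and a median of 0.31. Without subtraction of the median of all genes 4 were higher and 1 lower. NUPR1 was at 89.9 CPM with DMSO and 143 CPM with paclitaxel (0.81), the asparagine synthetase gene ASNS at 13.1 and 20.6 CPM (0.79) and CEBPB at 89.5 and 140 CPM (0.78). Of the p53 targets 2 of 19 were higher and 0 lower. BBC3, which encodes the pro-apoptotic protein PUMA, was at 7.97 and 19.3 CPM (1.42, 1.27 to 1.57). CDKN1A, which encodes the cell cycle inhibitor p21, had a relative log2 ratio of 0.01. Among 21 genes that promote apoptosis 2 were higher and 0 lower, and among 12 that oppose it 1 was higher, CFLAR, at 44.8 and 69.3 CPM (0.77). Genes of the drug efflux list were scarce: only 4 of 12 were measured, with MVP at 10.4 and 19.0 CPM (1.01) the single higher member.

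**Figure D2:**
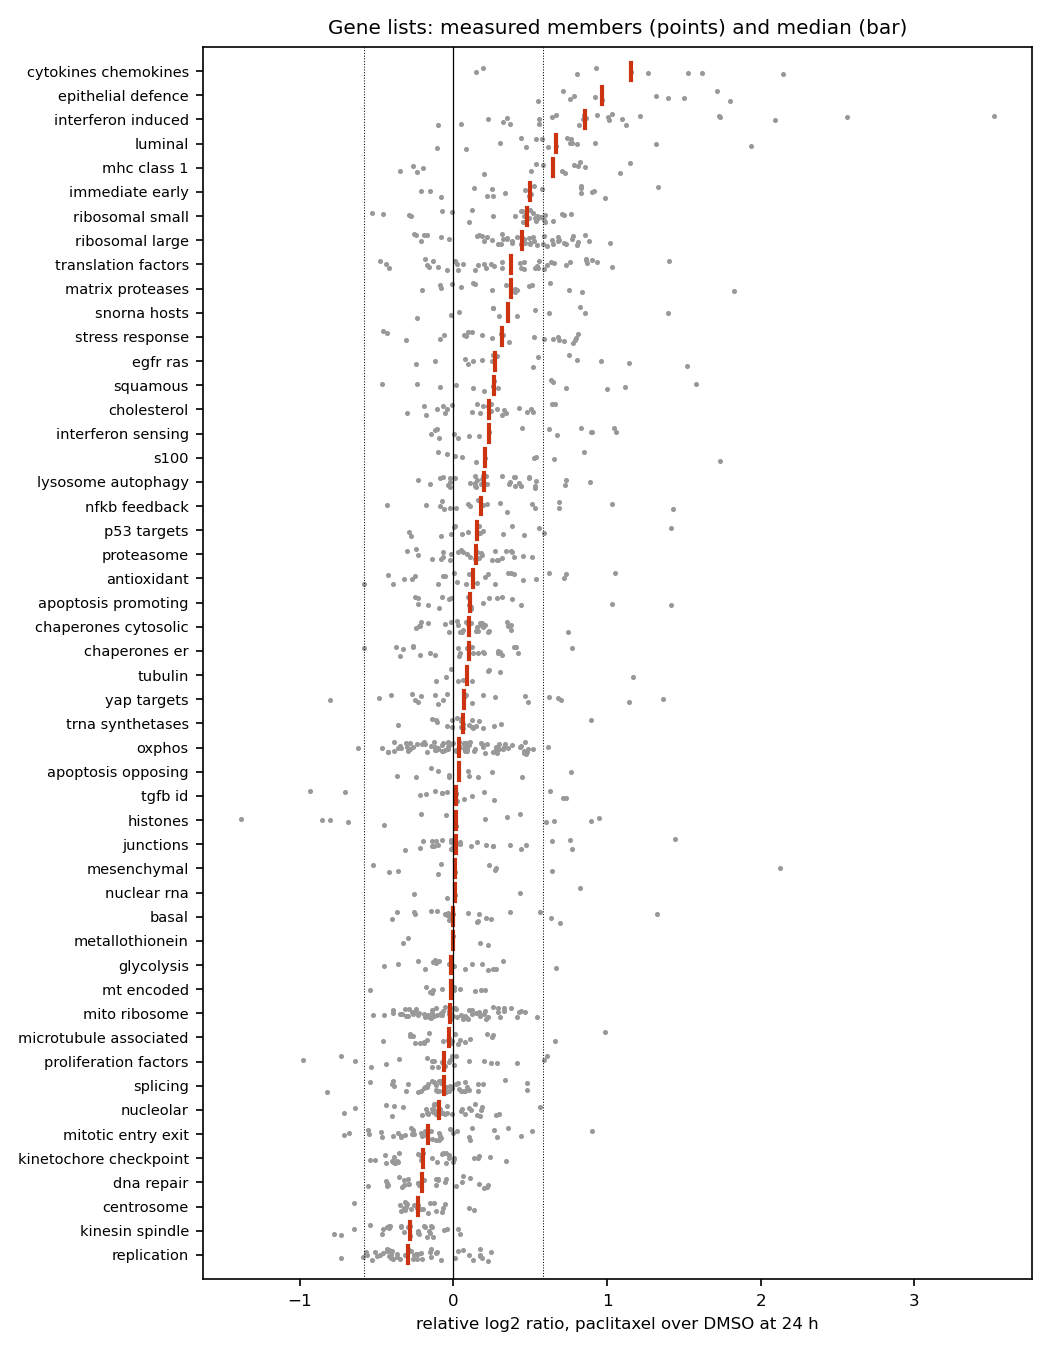
Relative log2 ratios of the measured members of each gene list (points) with the list median (red bar) and dotted lines at 1.5-fold. Chemokines and cytokines (median 1.16), epithelial defence (0.97) and interferon-induced genes (0.86) stand at the top, and replication (-0.30) and kinesin and spindle genes (-0.28) at the bottom.

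Transcripts of ribosomes and their helpers mostly lay above the median of all genes, but not in every member. Above it were 44 of 51 large subunit genes and 26 of 32 small subunit genes. The same held for 33 of 42 translation factors and 10 of 12 hosts of small nucleolar RNAs. Of 51 large subunit protein genes 16 were higher and 0 lower (median 0.45), and of 32 small subunit genes 7 were higher and 0 lower (median 0.48). Without subtraction of the median of all genes, 8 large subunit genes were higher, and 1 small subunit gene was higher and 2 lower. RPL10A was at 1409 CPM with DMSO and 2592 CPM with paclitaxel (1.02), RPL13A at 3931 and 6471 CPM (0.86) and RPS4X at 2913 and 4502 CPM (0.77). Of 42 translation factors 13 were higher and 0 lower (median 0.38), with EIF3E at 348 and 648 CPM (1.03) and EEF1G at 11.9 and 28.7 CPM (1.41). Of 12 hosts of small nucleolar RNAs 4 were higher and 0 lower (0.36), and GLTSCR2 among them was at 149 and 356 CPM (1.40). The median cell gave 27.0% of its UMIs to ribosomal protein genes with DMSO and 33.1% with paclitaxel. Among cells with 25 to 35% of such UMIs the medians of the large and small subunit lists were 0.15 and 0.14, although cells were chosen by the same genes. In those cells the interferon-induced list kept a median of 0.80 and BST2 was at 3.08. Ribosomal protein genes have many processed copies in the genome, so the assignment of their reads is uncertain.

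Most cell cycle genes lay below the median of all genes, and few of them passed 1.5-fold. In the kinesin and spindle list 29 of 31 measured members lay below the median of all genes, yet only 3 passed 1.5-fold, and the list median was -0.28. SKA3, which couples kinetochores to microtubules, was at 37.4 CPM with DMSO and 20.4 CPM with paclitaxel (-0.73), SPAG5 at 13.3 and 7.71 CPM (-0.65) and PIF1, a DNA helicase gene, at 70.9 and 37.6 CPM (-0.78). Of 33 kinetochore and checkpoint genes 0 passed 1.5-fold in either direction (median -0.20). Of 38 genes of mitotic entry and exit 1 was higher and 2 lower (median -0.16). DNA repair genes were placed alike, with 22 of 30 members below the median of all genes, 0 past 1.5-fold and a list median of -0.21. In cells of 30000 to 100000 UMIs more members were lower: 10 kinesin and spindle genes (median -0.53), 6 kinetochore genes (-0.36) and 9 mitotic genes (-0.39). MKI67, the proliferation marker, was at 161 and 89.4 CPM (-0.71, -0.76 to -0.67) and ESPL1, which encodes separase, at 12.8 and 7.24 CPM (-0.68). CCNG2, a cyclin found in cells leaving the cycle, was the higher member, at 10.8 and 18.3 CPM (0.90). Values of other mitotic genes were on both sides of 0, with CCNB1 at 0.51, CDC20 at 0.10, PLK1 at -0.18 and TOP2A at -0.34.

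Replication genes had the lowest list median, -0.30, with 2 of 51 members lower and 0 higher (10 lower without subtraction of the median of all genes). UHRF1, which carries DNA methylation through replication, was at 48.3 CPM with DMSO and 26.4 CPM with paclitaxel (-0.74), and GINS1, a helicase subunit, at 34.9 and 21.0 CPM (-0.59). The replication-dependent histone gene HIST1H4C was at 1093 and 381 CPM (-1.38, -1.41 to -1.36), the lowest of all 8096 genes. Histone genes split 4 against 4: HIST2H2AC (34.8 and 17.4 CPM, -0.86) and HIST1H1C (-0.81) were lower with it, while HIST3H2A (36.5 and 64.1 CPM, 0.95) and HIST2H2BE (0.90) were higher. Histone RNA without a poly(A) tail is not captured by this method.

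Of 26 growth and proliferation regulators 2 were higher and 3 lower, with a median of -0.06. MYBL2, which encodes B-MYB and drives late cell cycle genes, was at 247 and 114 CPM (-0.98, -1.02 to -0.94), and FOXM1 at 76.8 and 42.1 CPM (-0.73). CDKN2C, an inhibitor of cyclin D kinases, was at 112 and 65.4 CPM (-0.64), whereas CCND1, which encodes cyclin D1, was at 1175 and 1632 CPM (0.61). Some growth genes outside the cycle were lower as well, and 2 of 40 nucleolar genes were. ODC1, the first enzyme of polyamine synthesis, was at 226 and 125 CPM (-0.71), while SAT1, which breaks polyamines down, was at 158 and 319 CPM (1.15, 1.12 to 1.19). NOP56, a nucleolar protein gene, was at 292 and 170 CPM (-0.64), and YBX1, an abundant RNA-binding protein gene, at 2699 and 1538 CPM (-0.67, -0.69 to -0.66). Per cell of 20000 UMIs YBX1 was low in most of the population: 66.0% of paclitaxel cells fell below the 10th percentile of DMSO cells, and the median cell had 54 UMIs with DMSO and 26 with paclitaxel.

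Tubulin, the protein that paclitaxel binds, was counted in 10 genes, and only TUBA1A passed 1.5-fold. It was at 28.5 CPM with DMSO and 58.2 CPM with paclitaxel (1.17, 1.09 to 1.25), and the share of cells with a TUBA1A UMI was 34.7% and 54.3% in cells thinned to equal depth (69.5% and 79% unthinned). The main isotypes stayed near the median of all genes, with TUBB at 746 and 655 CPM (-0.05), TUBA1B at 726 and 653 CPM (-0.02) and TUBB4B at 210 and 207 CPM (0.12). TUBB2A was at 17.1 and 19.1 CPM (0.30). Among proteins that bind microtubules 2 of 26 were higher and 0 lower, MAP2 at 10.9 and 19.7 CPM (0.99) and DCTN2 at 64.2 and 92.3 CPM (0.66). Stathmin, STMN1, which releases tubulin from microtubules, had a value of -0.02. The sums hide a wider spread of tubulin over cells, given with the per-cell values.

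Few genes of energy metabolism and protein folding passed 1.5-fold. The nuclear oxidative phosphorylation list had a median of 0.03 with 1 of 83 members higher, ATP5G2 (0.62), and 1 lower, UQCR10 (-0.62). Mitochondrially encoded genes had a median of -0.02 and glycolysis genes of -0.02, with LDHB (171 and 247 CPM, 0.67) the single member past 1.5-fold. Chaperones of the cytosol and of the endoplasmic reticulum each had 1 higher member, PFDN5 (0.74) and HERPUD1 (0.77). No member of the mitochondrial ribosome list, 75 genes, passed 1.5-fold.

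Genes higher at 24 h were higher, lower or not past 1.5-fold with paclitaxel at 72 h. CXCL8 and SOD2 were higher with paclitaxel at 72 h also, at 3.71 and 1.42 on the relative log2 scale, as were IFI6 (3.05) and ISG15 (2.41). RARRES1 and MGP lay below the median of all genes at 72 h, at -0.26 and -0.42, and did not pass 1.5-fold. There DMSO and paclitaxel were at 56.1 and 57.0 CPM for RARRES1 and at 168 and 152 CPM for MGP. Their 24 h paclitaxel levels, 64.9 and 167 CPM, were close to those of the DMSO library at 72 h. At 72 h 11.1% of measured genes were higher and 7.93% lower, 19.1% together. KRT15, VTCN1, CCL28 and FOS were among the lower ones. KRT15 was at 64.3, 146, 239 and 114 CPM with DMSO and paclitaxel at 24 h and then with DMSO and paclitaxel at 72 h. On the falling side, MYBL2 was at 247, 114, 86.8 and 59.0 CPM in the same order and HIST1H4C at 1093, 381, 470 and 233 CPM. AXL was at 157, 81.4, 50.9 and 68.7 CPM.

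**Figure D3:**
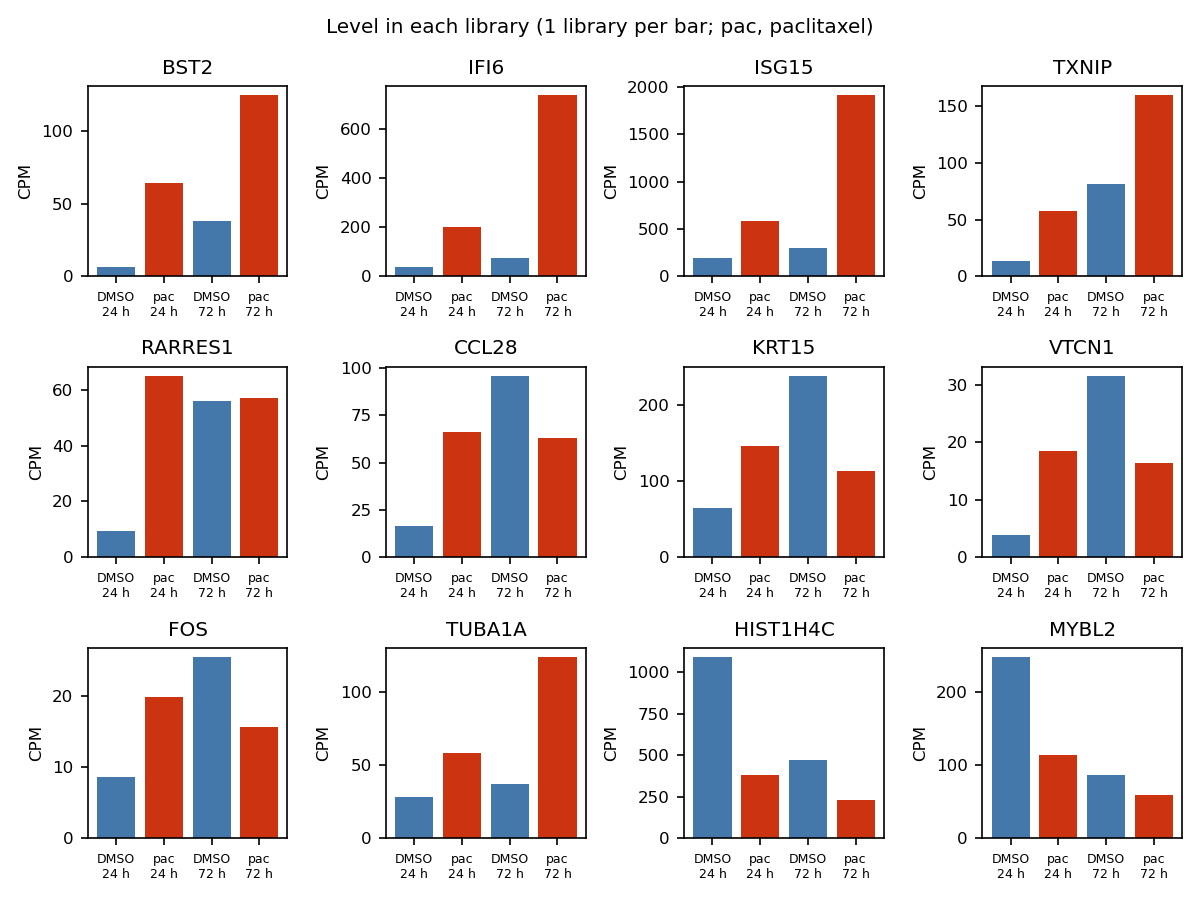
Level in CPM of 12 genes in each of the 4 libraries, 1 library a bar and no error bars since no group had replicates. ISG15 is highest in paclitaxel at 72 h (1912 CPM), while KRT15 is highest in DMSO at 72 h (239 CPM) and MYBL2 in DMSO at 24 h (247 CPM).

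To see whether differences lay in many cells or few, each cell was thinned at random to 20000 UMIs, which left 1080 DMSO and 750 paclitaxel cells and dropped 21 and 26 shallower ones. Values per cell below are UMIs of these 20000 and carry no subtraction of a median. Depth itself differed in spread: the 10th, 50th and 90th percentiles were 35425, 59378 and 103761 UMIs per cell with DMSO and 29195, 59670 and 131664 with paclitaxel. Cells over 100000 UMIs made up 11.4% and 21.6%. In a sum such cells weigh more. All cells belonged to 1 line, so no cell type without a given gene offered a background for free RNA.

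BST2 had at least 1 UMI in 9.26% of DMSO cells (exact binomial 95% interval 7.60 to 11.1) and in 51.5% of paclitaxel cells (47.8 to 55.1). IFI6 was seen in 42.3% and 83.1%. Without thinning, BST2 was seen in 22.7% and 70.4%, and IFI6 in 73.2% and 95.6%. ISG15 was already seen in 92.1% of DMSO cells and in 97.9% of paclitaxel cells, and its median was 3 and 8 UMIs. Its 90th percentile was 7 and 27 UMIs, a larger gap than at the median. The Fano factor of ISG15, the variance over the mean, was 2.82 and 13.9. In cells with a UMI the mean was 4.03 and 12.6 UMIs for ISG15 and 1.20 and 2.68 UMIs for BST2. BST2 thus differed both in how many cells showed it and in its level in them.

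Summed over the interferon-induced list, a DMSO cell had 24, 33 and 46 UMIs at the 10th, 50th and 90th percentile and a paclitaxel cell had 30, 52.5 and 104. Of the paclitaxel cells 59.5% (55.9 to 63.0) exceeded the 90th percentile of DMSO cells, against 9.26% of DMSO cells. The upper end moved more than the lower: 2.93% of paclitaxel cells still fell below the DMSO 10th percentile. The same share above the 90th percentile was 49.3% for epithelial defence, 36.8% for luminal genes and 31.7% for MHC class I. It was 19.2% for chemokines and cytokines, the list with the highest median ratio. It was 50.5% for translation factors, 46.3% for large ribosomal subunit genes and 41.7% for hosts of small nucleolar RNAs.

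Single genes at the head of the comparison were seen in more cells. TXNIP had a UMI in 16.9% of DMSO cells and 54.7% of paclitaxel cells, CCL28 in 21.5% and 55.2%, RARRES1 in 10.6% and 42.1% and LTB in 9.91% and 35.6%. MMP7 was seen in 63.9% and 89.7%, with medians of 1 and 5 UMIs. In contrast CXCL8 was seen in 22.4% and 31.6% and AREG, an EGFR ligand, in 25.4% and 30.9%, small steps beside their log2 ratios of 1.52 and 1.14. SPRR2D, a cornified envelope gene, was seen in 4.17% and 6.53% of cells, with a relative log2 ratio of 1.58. Without thinning the shares were 35.1% and 72.9% for TXNIP, 42.5% and 77.96% for CCL28, 24.9% and 65.3% for RARRES1, 25.9% and 58.9% for LTB, 86.9% and 97.6% for MMP7, 40.1% and 53.1% for CXCL8, 48.9% and 54.3% for AREG, 9.72% and 19.7% for SPRR2D. The Fano factor of CXCL8 was 8.33 and 128, and that of AREG 2.96 and 99.3.

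**Figure D4:**
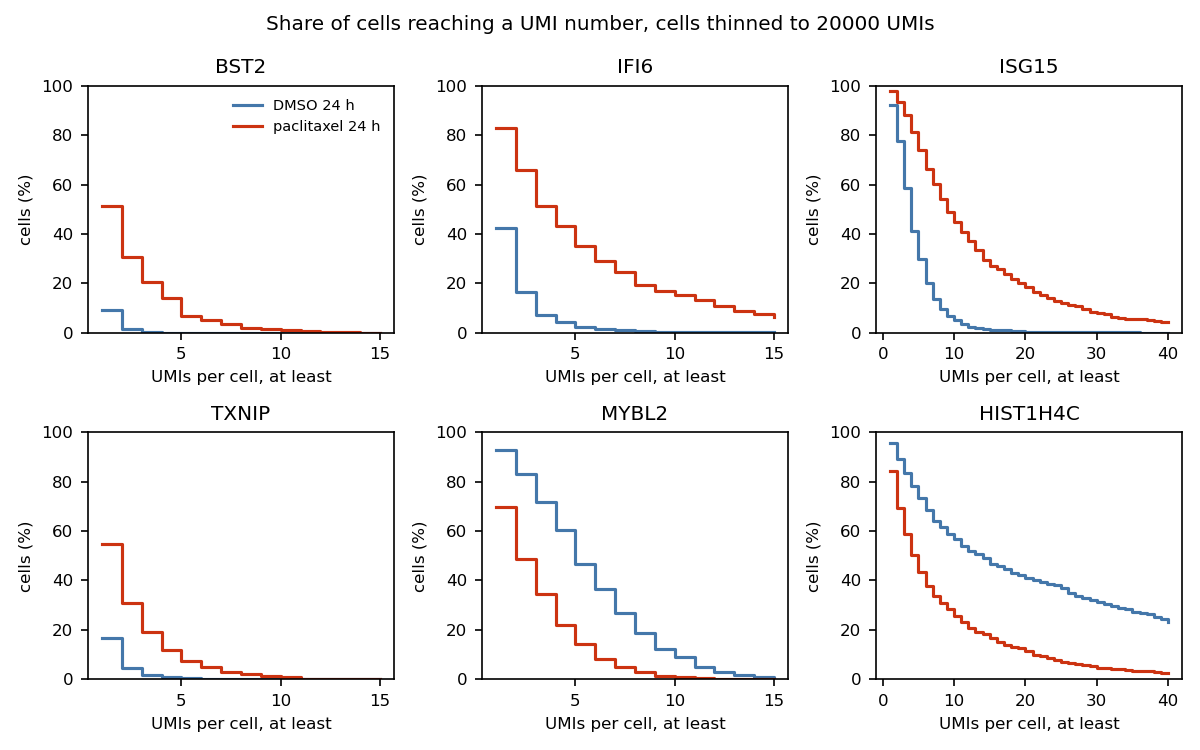
Share of cells with at least the given number of UMIs, in cells thinned to 20000 UMIs, for DMSO (blue, 1080 cells) and paclitaxel (red, 750 cells). BST2 goes from 9.26% to 51.5% of cells with a UMI, while HIST1H4C drops along the whole curve, with medians of 13 and 4 UMIs.

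Many CXCL8 and AREG UMIs lay in 2 paclitaxel cells, singled out after the values were seen. These cells had 26222 and 16501 UMIs and 3843 and 3104 detected genes. Only the first was deep enough for the thinned values, among them the Fano factors of CXCL8 and AREG. CXCL1 made up 4.03% and 3.67% of their UMIs, that is 40310 and 36664 CPM, where the next paclitaxel cell had 3471 CPM and the highest DMSO cell 2856 CPM. Both cells together held 15.8% of all CXCL1 UMIs of the library, 16.4% of CXCL8, 19.8% of AREG, 11.6% of HSPA1A and 62.5% of CXCL2. They held 0 UMIs of KRT8 and of NFKBIA, 3 of KRT18 and 4 of the nuclear RNA MALAT1, but 50 of EPCAM. Without them CXCL1 went from 0.80 to 0.56 and no longer passed 1.5-fold. CXCL8 went from 1.52 to 1.27 and AREG from 1.14 to 0.82, both still past it, and HSPA1A from 0.23 to 0.05. CXCL1 and CXCL2 lay outside the rule for named genes or were below its minimum level. The counts over all genes were 509 higher and 102 lower without the 2 cells.

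For the other genes a few cells seldom decided a result. When the 1% of cells highest in a gene, 12 with DMSO and 8 with paclitaxel, were left out gene by gene, 502 of the 510 higher and 100 of the 102 lower genes were still counted. The 8 higher genes lost were CXCL1, GADD45A, HLA-DRB1, KRT16, TMOD1, H1F0, UBALD2 and VAMP2. GADD45A was at 0.59, and its share of cells with a UMI was 51.3% with DMSO and 46.1% with paclitaxel (77.4% and 73.3% without thinning).

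Spread between cells was wider with paclitaxel even for genes whose sums hardly differed. Among 1749 genes with at least 50 CPM and a relative log2 ratio between -0.3 and 0.3, the median log2 ratio of the Fano factors was 0.15, with 89 genes at least 1.5-fold higher and 1 lower. TMSB4X, which encodes the actin-sequestering thymosin beta-4, had medians of 67 and 52 UMIs and Fano factors of 9.69 and 48.8. HSP90AB1, a cytosolic chaperone gene, had medians of 13 and 12 UMIs and Fano factors of 3.79 and 14.7. For PKM, a glycolytic enzyme gene, the Fano factors were 2.55 and 6.36. HSPA1A was at 1.56 and 44.8. The 2 cells above held 11.6% of its UMIs, but only the cell of 26222 UMIs enters these Fano factors.

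Tubulin showed the same kind of spread. Summed over the tubulin list, the 10th, 50th and 90th percentiles were 20, 37 and 65 UMIs with DMSO and 9, 29 and 67 with paclitaxel. The upper end was alike, while 35.1% of paclitaxel cells fell below the DMSO 10th percentile, against 9.91% of DMSO cells. The lower end of the mitotic entry and exit list (36.3% below), the kinesin and spindle list (35.2%), the kinetochore list (34.7%) and the replication list (32.5%) was filled in the same way. Lists with near-median ratios in the sums also had many paclitaxel cells below that mark, 45.7% for nucleolar genes, 44.3% for splicing, 46.3% for the mitochondrial ribosome and 43.9% for oxidative phosphorylation. Ribosomal protein genes took a larger share of UMIs in the same cells, and the part of this in the lower shares was not tested.

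**Figure D5:**
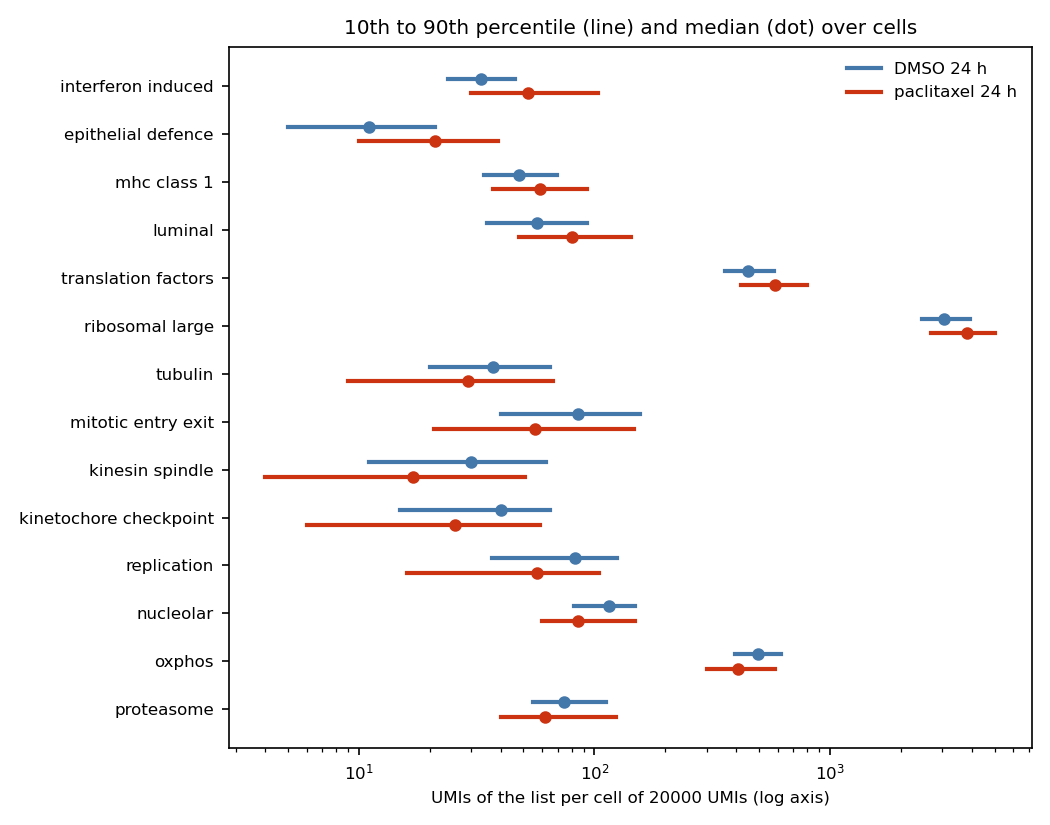
UMIs of a gene list per cell thinned to 20000 UMIs on a log axis, from the 10th to the 90th percentile (line) with the median (dot), for DMSO (blue, 1080 cells) and paclitaxel (red, 750 cells). Interferon-induced genes extend upward with paclitaxel (90th percentile 46 and 104 UMIs), and tubulin extends downward (10th percentile 20 and 9).

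Within a library, the summed lists also varied together differently. As a description over cells of equal depth, Spearman's rho between the interferon-induced and the tubulin list was -0.08 over 1080 DMSO cells and -0.46 over 750 paclitaxel cells. Between the mitotic entry and exit list and tubulin it was 0.51 and 0.74, and between the interferon-induced and MHC class I lists 0.21 and 0.42. Cells of 1 library share that library, and lists compete for the same 20000 UMIs.

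Cells with no UMI of either MKI67 or TOP2A, genes expressed in cycling cells, made up 91 of 1080 thinned DMSO cells (8.43%, 6.84 to 10.2) and 229 of 750 paclitaxel cells (30.5%, 27.3 to 34.0). This is a range and not a cell type: another 102 and 112 cells had exactly 1 such UMI. Differences between the libraries were then taken separately in both sets of cells. Among cells with such a UMI, 436 genes were higher and 74 lower, and among cells without one 495 were higher and 296 lower. The interferon-induced list had medians of 0.77 with such UMIs and 1.01 without, and MHC class I had 0.59 and 0.74. BST2 was at 3.30 and 3.87. These 2 lists were thus higher with paclitaxel in both sets. Chemokines and cytokines were at 1.03 and 0.98 by the ratios of summed UMIs, but their UMIs per cell, summed over the list, had a median of 23 with either treatment in cells without MKI67 or TOP2A UMIs. In cells with such UMIs these medians were 26 with DMSO and 29 with paclitaxel.

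Other lists differed between the sets, though the difference was not tested. Large ribosomal subunit genes had a median of 0.42 with 14 higher in cells with MKI67 or TOP2A UMIs, and of 0.18 with 1 higher in cells without. Small subunit genes had 0.46 with 4 higher, and 0.12 with 0 higher and 2 lower. The stress response list had 0.33 with 8 higher, and 0.09 with 1 higher and 1 lower.

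Medians of the kinesin and spindle, kinetochore, and mitotic entry and exit lists came closer to 0 in both sets. These sets were themselves chosen by 2 cell cycle genes. The kinesin and spindle list was at -0.06 in cells with MKI67 or TOP2A UMIs and at -0.14 in cells without, and mitotic entry and exit at -0.02 and 0.06. The replication list was at -0.21 and -0.32, beside -0.30 in all cells. In cells without these UMIs 7 replication genes were lower, beside 2 in all cells, and 3 kinetochore genes, beside 0. MYBL2 stayed at -0.79 and -1.33 and YBX1 at -0.64 and -0.88. HIST1H4C was at -1.21 and -0.72. AXL was at -0.78 and 0.12, BAMBI at 0.80 and -0.24 and KRT6B at 0.69 and -0.18, so these 3 kept their direction only in cells with such a UMI. The same held for PIF1 (-0.55 and 0.35) and ESPL1 (-0.48 and 0.38), whose promoters are printed above. KRT15 was at 1.16 and 0.30, CTGF at 1.34 and 0.27 and MUC1 at 0.98 and 0.19. The set without these UMIs holds only 91 DMSO cells.

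Tubulin per cell followed the same division. In cells with MKI67 or TOP2A UMIs the median tubulin sum was 38 UMIs in both libraries, with 10th percentiles of 22 (DMSO) and 13 (paclitaxel). In cells without such UMIs the medians were 21 with DMSO and 13 with paclitaxel. The interferon-induced sum had medians of 33 in both sets of DMSO cells, and of 48 and 63 in paclitaxel cells with and without these UMIs. Its 90th percentile was 94 and 122 UMIs in these paclitaxel cells. Epithelial defence had medians of 11 and 13 UMIs in DMSO cells with and without them, and of 20 and 24 in paclitaxel cells.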

How the data were processed

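The authors deposited raw UMI counts for each gene symbol in each barcode, which were found to be whole numbers. The submitters' processing notes name Cell Ranger 2.0 and GRCh38; cell selection is not described in the sources used. A listed gene was seen in 12 or more cells (DMSO 24 h) or 8 or more (paclitaxel 24 h), so an unlisted gene is no measured 0: 255 genes were listed for DMSO alone and 690 for paclitaxel alone, none reaching 10 CPM on average. Kept cells summed to 72024235 and 55502535 UMIs, so that 3 counts equal 0.0417 and 0.0541 CPM. No doublet caller was run, and cells of 30000 to 100000 UMIs were tried as an alternative.

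UMIs were summed, scaled to CPM and centred on the median log2 ratio. The comparison, lists and rules were chosen with earlier results of these data known, so no list is independent evidence of its direction. Named by rule were the 30 highest and 30 lowest relative log2 ratios at a mean of 50 CPM or more (without MT-, RPL and RPS genes), the 12 highest and 12 lowest from 10 to 50 CPM, up to 4 measured genes a list by size of the ratio, 8 genes each with the largest rise and fall of the Fano factor, and fixed tubulin, keratin and cell cycle genes. CXCL1, CXCL2, IFI44L, some marker genes and some genes lost with 1% of cells lay outside the rule. List members averaging 10 CPM or more are called measured. Thinning drew UMIs without replacement. The comparison of sums was tried on simulated counts with counting error only and 2-fold changes. Those counts held no spread between cells or libraries, so the trial cannot check the calls against such spread. Alternatives were other scalings, minimum levels, choices of cells and thinning depths. Tools were Python 3.11.15, numpy 2.4.6, pandas 2.3.3, scipy 1.17.1, matplotlib 3.10.9, R 4.3.3 and edgeR 4.0.16 (TMM factors only).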

Additional observations from a re-analysis of the deposited data

Results flagged for a closer look

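Some genes were past 1.5-fold in opposite directions at 24 h and 72 h, where each time has its own DMSO and paclitaxel library and 1 library a group. At 72 h 11.1% of the measured genes were higher with paclitaxel and 7.93% lower. The difference between the times was not tested. Higher at 24 h and lower at 72 h, with relative log2 ratios in that order, were genes of the epithelial surface and secretion: VTCN1 (2.40 and -1.23), CCL28 (2.14 and -0.88) and MUC16 (1.80 and -1.38). The keratin gene KRT15 (1.32 and -1.34) was another. The calcium channel gene ITPR2 (2.01 and -1.24), the immediate early gene FOS (1.33 and -0.98), RBMS3 (0.70 and -0.80), TKT (0.72 and -0.71), IGBP1 (1.01 and -0.66) and ATP5G2 (0.62 and -0.70) did the same.

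Genes of translation made up much of the rest. They were GLTSCR2 (1.40 and -0.91), EIF3E (1.03 and -0.87), EIF4B (0.94 and -1.25), EIF3L (0.90 and -1.07), QARS (0.89 and -1.12), RPL10A (1.02 and -1.24), RPL13A (0.86 and -1.02), RPL10 (0.81 and -1.02), RPS4X (0.77 and -0.99), RPS18 (0.72 and -0.86), RPS9 (0.71 and -1.16) and RPS3 (0.65 and -1.06). Beside these values, the median cell gave ribosomal protein genes 27.0% of its UMIs with DMSO and 33.1% with paclitaxel at 24 h, and 40.6% and 27.5% at 72 h; their part in the result was not tested. SFTA1P, a transcribed pseudogene, went the other way (-0.79 and 2.30), at 51.6 and 27.0 CPM at 24 h and at 4.67 and 27.9 CPM at 72 h.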

How the results depend on the processing

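The number of higher genes, 510, was 324 without subtraction of the median, 188 at a mean of 50 CPM or more, 1432 with no minimum level and 118 at 2-fold. The number of lower genes, 102, was 293, 41, 484 and 3 in these settings, 207 in cells of 30000 to 100000 UMIs, 154 from the mean of per-cell CPM and 296 in cells without MKI67 and TOP2A UMIs. TMM factors gave 446 and 143, and totals without RPL, RPS and MT- genes 453 and 135. Without subtraction all genes shift by 0.14. The subtracted median was -0.14 over all cells and -0.04 in cells without MKI67 and TOP2A UMIs, where genes moved by different amounts. In those cells 5 named genes changed sign: AXL (0.12), BAMBI (-0.24), ESPL1 (0.38), KRT6B (-0.18) and PIF1 (0.35); the cause was not tested. The share of paclitaxel cells above the DMSO 90th percentile of interferon-induced UMIs was 59.5%, and 54.4% at 10000 UMIs a cell. Leaving out the 2 CXCL1-rich cells, leaving out the top 1% of cells and counting genes in cells with or without MKI67 or TOP2A UMIs were chosen after seeing the data. No replicate could be left out, and no paired analysis was possible because each group had 1 library. Counting precision was lowest near 10 CPM, where the interval of BBC3 ran from 1.27 to 1.57.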

Other observations

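Some members of gene groups not described above were higher, in shares to be read beside the 6.3% of all measured genes that were higher. Of 36 lysosome and autophagy genes 3 were higher with paclitaxel and 0 lower (median 0.20): WIPI1, at 35.2 CPM with DMSO and 59.2 CPM with paclitaxel (relative log2 ratio 0.89), the granulin precursor GRN, at 121 and 182 CPM (0.73), and GABARAP, at 19.7 and 29.6 CPM (0.72). Of 26 cholesterol and lipid synthesis genes 2 were higher, the desaturase gene SCD, at 83.9 and 121 CPM (0.66), and INSIG1, at 29.3 and 41.6 CPM (0.64). Of 11 S100 genes, which encode small calcium-binding proteins, 3 were higher, with S100A1 at 11.97 and 36.2 CPM (1.73). The nuclear RNA NEAT1 was at 248 and 400 CPM (0.83). Among enzymes, ASS1 of arginine synthesis was at 89.1 and 183 CPM (1.18) and TYMP, a thymidine phosphorylase, at 167 and 328 CPM (1.11). SFRP1, a secreted WNT antagonist, was at 106 and 195 CPM (1.01).

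Among lower genes outside the cell cycle, RPPH1, the RNA of ribonuclease P, was at 16.8 and 6.58 CPM (-1.22). GTF3A, a factor of 5S ribosomal RNA transcription, was at 319 and 172 CPM (-0.75). HMGN1, a nucleosome-binding protein gene, was at 1556 and 906 CPM (-0.64), and HRAS was at 88.1 and 50.6 CPM (-0.66). By chromosome, the median relative log2 ratio of measured genes lay between -0.05 on chromosome 22 and 0.08 on chromosome 21.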
